A study of Mus musculus with 5 samples.

Results

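Contractile mural and myofibroblast genes were followed in cultures of mouse brain cells, to see how much RNA of non-neural contractile cells each culture held. The group was 10 genes chosen by name: Acta2, Tagln, Cnn1, Myl9, Actg2, Tpm2, Myh11, Des, Pdgfrb and Rgs5. All 10 had a row among the 20178 transcripts in the tables, and all 10 had reads in every library. Each was matched through its RefSeq transcript, and the matching rule used no measured level, but the genes were chosen with earlier results of these data known.

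The cells came from ICR mice and were taken at passage 2. Astrocyte progenitor cells were grown from the ventral midbrain (VM astrocytes) or the cortex (Ctx astrocytes) at postnatal day 5, and neural progenitor cells (Ctx NPCs) were grown from the cortex of E12 embryos. A further pair of VM astrocyte cultures had received lentivirus. One was titled C and is called VM-C here, and the other was titled NF and is called VM-NF. Their treatment entries contradict the titles, since the library titled C is entered with Nurr1 and Foxa2 viruses and the library titled NF with the mock virus. The titles, which the column names inside the tables share, were followed, and each direction between VM-C and VM-NF rests on that choice. In the study's methods the vectors drive mouse Nurr1 and rat Foxa2 from a CMV promoter, and the control virus carries the empty backbone. No virus was named for the other 3 libraries. How many animals were pooled for a culture was not given in the sources used here.

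There was 1 library per condition, so no difference below has a replicate check. Library totals lay between 20010818 and 22554835 reads. The targeted genes were read first as a check of the titles. Nr4a2, which encodes Nurr1, had 81 reads in VM astrocytes, 53 in VM-C, 183 in VM-NF, 106 in Ctx astrocytes and 93 in Ctx NPCs. For Foxa2 the reads numbered 68, 15, 216, 1 and 0, in that order. Both genes were thus highest in the library titled NF, as its title but not its treatment entry would have it. The Nurr1 vector carried the mouse sequence, yet Nr4a2 had only 183 reads there, against 81 in VM astrocytes with no named virus. With 1 library per condition, this check does not settle which entry is right. The Foxa2 vector carried the rat sequence, and how much of it would be counted on the mouse gene was not tested. Against the labelled cell types, Gfap, the intermediate filament of astrocytes, had 154 FPKM (reads scaled to transcript length and to library total) in VM astrocytes, 180 in VM-C, 77.8 in VM-NF and 476 in Ctx astrocytes. Ctx NPCs held 2246 FPKM of Gfap and 1485 FPKM of Mbp, a myelin gene of mature oligodendrocytes, more of both than any other library, although it is labelled as progenitors.

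Mural cells are the smooth muscle cells and pericytes that wrap blood vessels. Smooth muscle cells contract by sliding smooth muscle actin past smooth muscle myosin, and calponin, transgelin and tropomyosin sit on the actin filament and tune that movement. Pericytes on brain capillaries depend on PDGF-BB from the endothelium, which they sense through PDGFRβ. Fibroblasts that turn on Acta2 under TGF-β and mechanical tension are called myofibroblasts, and cultured cells of other kinds, astrocytes among them, can also turn on Acta2 and Tagln on stiff plastic in serum. Many of these genes are switched on by serum response factor, which binds a sequence called the CArG box, with the coactivators myocardin and MRTF. None of these genes therefore counts cells by itself. In bulk RNA, fewer contractile cells and less contractile RNA per cell cannot be told apart.

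The promoters of 6 of the 10 genes were in the RefSeq table of promoter windows (GRCm38.p6), each 250 bases before to 50 bases after the start. They were Acta2, Cnn1, Myl9, Tpm2, Des and Rgs5. Tagln, Actg2, Myh11 and Pdgfrb had no window. A CArG box was searched on both strands as CC, 6 bases of A or T, and GG. It was found in 1 of the 6 windows, that of Myl9, and in 1.63% of all 32851 windows. With 1 G or C allowed among the 6 inner bases, 2 of the 6 windows had a match, those of Acta2 and Myl9, against 9.98% of all windows. The stretches of 100 bases below show both matched promoters beside that of Cnn1, the gene with the widest range between libraries, which had no match in its window. They are written 5′ to 3′ in the direction of the gene, with the matches in capitals. Acta2 lies on the minus strand at chr19:34255374-34255473, Myl9 on the plus strand at chr2:156775289-156775388 and Cnn1 on the plus strand at chr9:22099153-22099252.
Acta2: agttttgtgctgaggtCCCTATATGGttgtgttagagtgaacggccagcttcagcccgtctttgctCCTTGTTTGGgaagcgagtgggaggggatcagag
Myl9: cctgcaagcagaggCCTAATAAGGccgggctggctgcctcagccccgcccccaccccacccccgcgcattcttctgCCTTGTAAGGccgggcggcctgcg
Cnn1: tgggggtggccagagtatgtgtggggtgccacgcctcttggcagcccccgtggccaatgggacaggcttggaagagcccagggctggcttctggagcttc
The matches began 84 and 34 bases before the start of Acta2, and 161 and 99 bases before the start of Myl9. The last 20 bases of the Acta2 and Cnn1 windows were found in their GENCODE transcripts and those of the Myl9 window were not, so the Myl9 distances hold for the start in the RefSeq table. A match describes the letters only, and no match says only that these letters are not in this window.

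Per length, Tagln and Acta2 led the group in the 3 VM libraries and in Ctx astrocytes. In VM astrocytes the order of levels was Tagln at 598 FPKM, Acta2 at 463, Myl9 at 212, Cnn1 at 127, Tpm2 at 47.5, Pdgfrb at 17.9, Actg2 at 11.3, Des at 8.05, Myh11 at 1.90 and Rgs5 at 1.02. Genes that many contractile cell types can turn on stood at the top, and Myh11 and Rgs5, the genes most particular to smooth muscle cells and pericytes, stood at the bottom. In Ctx NPCs the order changed, with Acta2 at 120 FPKM, Myl9 at 115 and Tagln at 85.5, and 5 of the 10 genes were below 1 FPKM. The FPKM of Tpm2 was computed by the authors with a transcript of 3259 bases, 1.55 times as long as the GENCODE transcript of 2098 bases, which lowers its FPKM by that factor but leaves its place in the order of VM astrocytes. For Acta2 the authors' transcript was 2581 bases, 1.27 times the 2035 bases of GENCODE. With GENCODE lengths for all genes, chosen after the data were seen, Acta2 passed Tagln in VM-NF, at 507 against 498 FPKM, and in Ctx astrocytes, at 330 against 319, and stayed below it in VM astrocytes and VM-C.

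**Figure D1:**
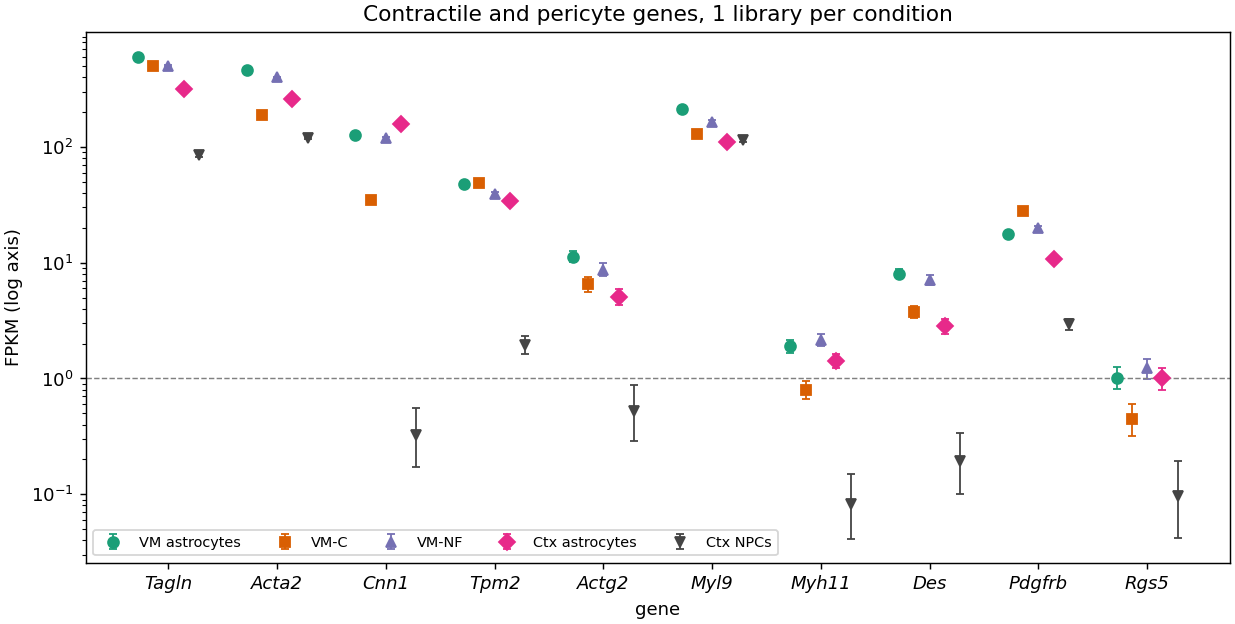
FPKM (log axis) of the 10 genes in each library, with 1 point per library and bars for the exact Poisson 95% interval of its reads, most of them smaller than the point. The dashed line is 1 FPKM, and Ctx NPCs lie below it for Cnn1, Actg2, Myh11, Des and Rgs5 while Myl9 stays at 115 FPKM.

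Acta2, smooth muscle α-actin, had 463 FPKM in VM astrocytes, 190 in VM-C, 400 in VM-NF, 260 in Ctx astrocytes and 120 in Ctx NPCs. VM astrocytes and VM-NF were high, VM-C lay below Ctx astrocytes, and Ctx NPCs were lowest. Actg2, the smooth muscle γ-actin of gut and bladder, was far lower at 11.3, 6.50, 8.69, 5.07 and 0.528 FPKM in the same order. Its 14 reads in Ctx NPCs had an exact Poisson 95% interval of 7.65 to 23.5 reads. Actins are nearly identical in their coding sequence, but over 50-base windows of the GENCODE transcripts only 0.352% of Acta2 and 0% of Actg2 was shared with another gene, against 56.7% of the cytoplasmic Actg1. The read length was not given in the sources used here.

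Tagln encodes transgelin (SM22α), an actin-binding protein of smooth muscle and an early marker of myofibroblasts. Its levels were 598 FPKM in VM astrocytes, 498 in VM-C, 499 in VM-NF, 320 in Ctx astrocytes and 85.5 in Ctx NPCs. The 3 VM libraries lay within 1.20-fold of one another, so Tagln did not share the low value of Acta2 in VM-C. Cnn1, calponin, which slows actin-activated myosin in differentiated smooth muscle, had 127, 34.6, 119, 157 and 0.326 FPKM. It was the only one of the 10 genes that was highest in Ctx astrocytes, and its range over the 5 libraries was 482-fold. In Ctx NPCs it rested on 13 reads (95% interval 6.92 to 22.2), against 6708 reads in Ctx astrocytes. Tpm2, β-tropomyosin, which lies along the actin filament, had 47.5, 48.6, 39.5, 34.3 and 1.96 FPKM.

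Myl9, the smooth muscle regulatory light chain that is phosphorylated to start contraction, had 212 FPKM in VM astrocytes, 130 in VM-C, 164 in VM-NF, 111 in Ctx astrocytes and 115 in Ctx NPCs. Its range of 1.90-fold was the narrowest of the 10 genes. Myh11, smooth muscle myosin heavy chain and the most specific marker of the mature contractile cell, had 268 reads in VM astrocytes, 119 in VM-C, 291 in VM-NF, 203 in Ctx astrocytes and 11 in Ctx NPCs. On the FPKM scale these were 1.90, 0.795, 2.16, 1.43 and 0.0829. Des, desmin, the intermediate filament of muscle that is also found in pericytes, had 527, 260, 443, 186 and 12 reads in the same order. VM-C was the lowest VM library for both genes, and for Des the cortical libraries were lower still.

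Pdgfrb, the PDGF-BB receptor carried by pericytes and fibroblasts, had 17.9 FPKM in VM astrocytes, 27.7 in VM-C, 19.9 in VM-NF, 10.8 in Ctx astrocytes and 2.93 in Ctx NPCs. It was highest in VM-C, where Acta2, Cnn1, Myh11 and Des were at their lowest among the VM libraries. Rgs5, a regulator of G-protein signalling abundant in brain pericytes, had only 89 reads in VM astrocytes, 41 in VM-C, 102 in VM-NF, 88 in Ctx astrocytes and 8 in Ctx NPCs. The intervals of its reads overlapped among VM astrocytes, VM-NF and Ctx astrocytes.

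Ratios between libraries were taken on reads scaled to library totals (CPM), with 0.5 reads added. A gene counted as past 2-fold if it also had FPKM above 1 in at least 1 of the 2 libraries. All 10 genes passed that filter in all 5 comparisons. The intervals given are exact (Clopper-Pearson) 95% intervals. They hold counting error alone, because each side of a ratio is 1 library. PCR copies of 1 molecule can be counted more than once, so the intervals may be too narrow even for that error.

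By the titles, VM-NF against VM-C sets the Nurr1 and Foxa2 viruses against the mock virus. In this pair of single libraries the effect of the viruses cannot be told apart from a difference between cultures. Here 4 of the 10 genes were higher past 2-fold in VM-NF, beside 9.53% of the 12701 genes with enough FPKM, and 0 were lower, beside 9.73%. Cnn1 was higher by 1.78 on the log2 scale (1.70 to 1.87), Rgs5 by 1.45 (0.93 to 2.02), Myh11 by 1.44 (1.13 to 1.76) and Acta2 by 1.07 (1.04 to 1.10). Des, at 0.92 (0.69 to 1.14), lay just inside 2-fold. Tagln had a ratio of 0.00 (-0.03 to 0.03), Tpm2 of -0.30 (-0.37 to -0.23) and Pdgfrb of -0.48 (-0.56 to -0.40), so the group did not move as one. The median over the 10 genes was 0.67, and that over all 12701 genes was -0.02.

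The same VM-C library was also set against VM astrocytes without a named virus, so both comparisons share its reads. Here 5 of the 10 genes were lower in VM-C past 2-fold, beside 8.48% of 12703 genes, and 0 were higher, beside 7.30%. Cnn1 fell by 1.88 on the log2 scale (interval of the ratio -1.96 to -1.80), Acta2 by 1.28, Myh11 by 1.25, Rgs5 by 1.19 and Des by 1.10. Tpm2 had a ratio of 0.03 (-0.04 to 0.10) and Pdgfrb of 0.63 (0.56 to 0.71). The median was -0.95, against -0.01 over all genes.

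VM-NF and VM astrocytes were close. None of the 10 genes passed 2-fold in either direction, and the background was also low, with 0.322% of 12428 genes higher in VM-NF and 0.668% lower. The ratios ran from -0.38 for Actg2 to 0.26 for Rgs5, with a median of -0.20 against -0.05 over all genes. The library that stood apart among the 3 VM cultures was thus VM-C, whichever virus it received. Read shares of marker genes of other cell types differed with it. The 9 microglial genes with a row took 0.0731% of the reads in VM-C, 0.0184% in VM astrocytes and 0.0125% in VM-NF. The 10 oligodendrocyte genes took 0.0572%, 0.0317% and 0.0250%, and the 7 genes of ciliated ependymal cells took 0.00665%, 0.0358% and 0.0334%. Cell number and RNA per cell cannot be told apart in these shares. Their part in the contractile gene ratios was not tested, and virus and culture cannot be told apart with 1 library each.

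**Figure D2:**
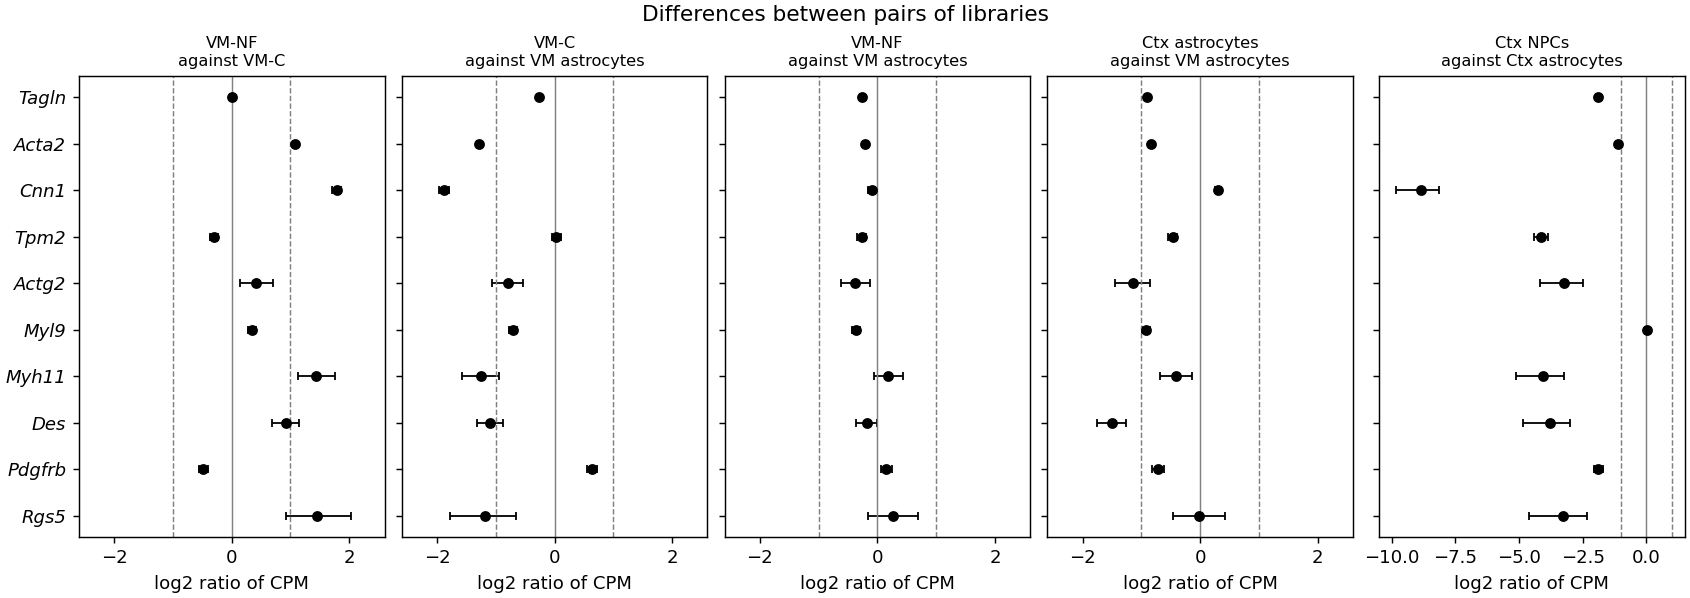
Log2 ratio of CPM of the 10 genes in the 5 comparisons, with exact 95% intervals of counting error. Solid lines mark 0 and dashed lines mark 2-fold. The last panel has a wider axis. Points in the VM-NF against VM astrocytes panel all lie inside 2-fold, and Cnn1 reaches -8.86 in the last panel.

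Between the 2 brain regions, 2 of the 10 genes, Des and Actg2, were lower past 2-fold in Ctx astrocytes than in VM astrocytes, beside 9.89% of 12553 genes. None was higher past 2-fold, beside 4.49%. Des fell by 1.51 on the log2 scale and Actg2 by 1.15. Myl9 at -0.93, Tagln at -0.90, Acta2 at -0.83 and Pdgfrb at -0.72 were lower by less than 2-fold. Cnn1 was the only one of the 10 genes with a higher CPM in Ctx astrocytes, at 0.30 (0.25 to 0.35), and Rgs5 was at -0.03 (-0.47 to 0.42). The median was -0.78, against -0.05 over all genes.

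Ctx NPCs against Ctx astrocytes gave the widest differences, and these libraries also differ in age and in cell type. In Ctx NPCs 9 of the 10 genes were lower past 2-fold, beside 17.9% of 12623 genes, and 0 were higher, beside 20.1%. Cnn1 fell by 8.86 (interval of the ratio -9.82 to -8.14), Tpm2 by 4.12, Myh11 by 4.05, Des by 3.80, Rgs5 by 3.28, Actg2 by 3.22, Tagln by 1.90, Pdgfrb by 1.88 and Acta2 by 1.12, all on the log2 scale. Myl9 was the exception at 0.04 (-0.04 to 0.12). The median was -3.25, against 0.19 over all genes. Other scalings moved the median over all genes by -0.17 to -0.18. Relative to them Myl9 lay at -0.13 to -0.14, and the same 9 genes stayed past 2-fold.

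As a share of all reads, the 10 genes held 0.294% in VM astrocytes, 0.183% in VM-C, 0.253% in VM-NF, 0.181% in Ctx astrocytes and 0.0595% in Ctx NPCs. The sum in VM-C and in Ctx astrocytes was nearly the same, although its make-up was not, since Cnn1 was 34.6 FPKM in one and 157 in the other. Acta2 and Tagln together dominated the sum. In VM astrocytes Acta2 gave 40.7% and Tagln 32.4% of the 10 genes' reads.

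Many of the 10 genes have non-muscle relatives that every cell uses, and the share that single genes of the 10 took of their protein family was computed on the FPKM scale. Some relatives, such as Tpm1 and Cnn2, are themselves in the list of other smooth muscle contractile genes. Acta2 made up 20.4% of the summed FPKM of 6 actins in VM astrocytes, 10.4% in VM-C, 23.1% in VM-NF, 22.7% in Ctx astrocytes and 7.55% in Ctx NPCs. The shares in VM astrocytes, VM-NF and Ctx astrocytes were close, and the lower Acta2 of Ctx astrocytes went with a lower Actb, at 715 FPKM against 1486 in VM astrocytes. Actb and Actg1 share 14.2% and 56.7% of their windows with other genes, so their own levels are uncertain. Gapdh, named after its values were seen, shares 82.5% of its windows and had only 1 to 10 reads in a library. Reads of shared sequence may thus be missing from Actb and Actg1, in which case the share of Acta2 is overstated, and this was not tested. With GENCODE lengths the Acta2 shares were 24.6%, 12.9%, 27.6%, 27.1% and 9.40%. Cnn1 was 12.6%, 6.45%, 12.8%, 13.9% and 0.0479% of the 3 calponins, and in Ctx NPCs Cnn3, the calponin of non-muscle cells, made up 91.9%. Myh11 never exceeded 0.810% of the 3 class II myosin heavy chains, which Myh9 led in every library. Myl9 was 23.3%, 24.1%, 21.2% and 20.1% of the 3 regulatory light chains in the astrocyte libraries and 33.5% in Ctx NPCs, where Myl12a was 85.8 FPKM against 200 in Ctx astrocytes.

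**Figure D3:**
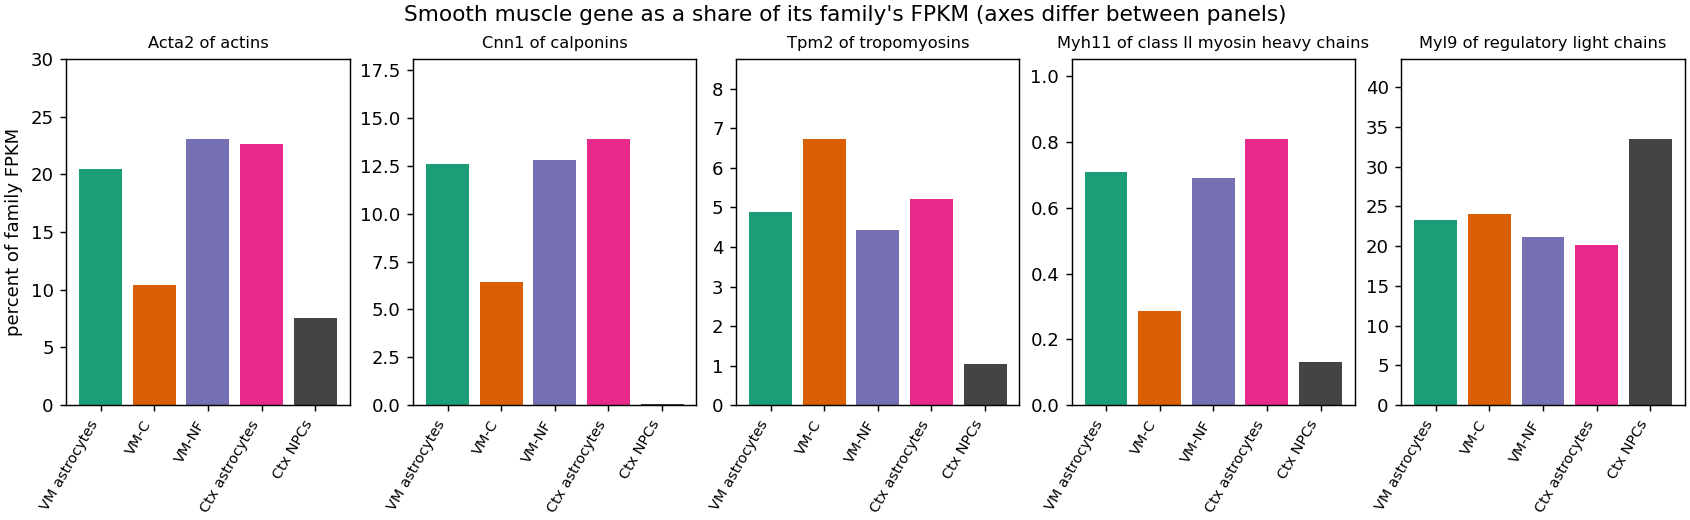
Percent of a family's summed FPKM that came from the gene named above each panel, 1 bar per library and no error bar since there is 1 library per condition. Axes start at 0 and differ between panels. Acta2, Cnn1 and Myh11 have their lowest astrocyte value in VM-C (10.4%, 6.45% and 0.286%), and Tpm2 has its highest there (6.73%). Tpm1, in the list of other smooth muscle contractile genes, has 33.9% of the tropomyosins in VM-C against 47.1% in VM astrocytes. Tpm2 itself has 48.6 and 47.5 FPKM in these libraries.

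The other genes of the contractile apparatus formed a list of 12, of which 10 had enough FPKM in each comparison. In VM-NF against VM-C, 2 were higher past 2-fold (9.53% of all genes) and 0 lower (9.73%), with a median of 0.70. The 2 were Lmod1, which nucleates actin filaments in smooth muscle, at 1.38, and Synm, an intermediate filament partner of desmin, at 1.75. Both were named after their values were seen. The most abundant genes of the list, Tpm1, Cald1, Cnn2 and Csrp1, had ratios of 0.83, 0.11, 0.68 and 0.73. In Ctx NPCs against Ctx astrocytes 8 were lower (17.9% of all genes) and 1 was higher (20.1%), with a median of -2.25. The 1 that was higher was Synpo2, an actin-bundling protein, with 763 reads in Ctx NPCs against 344 in Ctx astrocytes and was also named after its value was seen. Pln, a calcium pump regulator of muscle, had 1, 2, 0, 0 and 0 reads in VM astrocytes, VM-C, VM-NF, Ctx astrocytes and Ctx NPCs. A count of 0 allows up to 3 reads, or 0.148 CPM in VM-NF.

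Of the 8 regulators of contractile genes, 7 had enough FPKM. Klf4, a repressor of the smooth muscle programme, had 30.7 FPKM in VM astrocytes, 10.5 in VM-C, 34.5 in VM-NF, 13.9 in Ctx astrocytes and 10.6 in Ctx NPCs. It was the only 1 of these 7 past 2-fold in VM-NF against VM-C, higher by 1.72 on the log2 scale, beside 9.53% of all genes. Among the VM libraries it was lowest where Acta2 and Cnn1 were lowest. Tead1, a partner of YAP at muscle promoters, had 33.0, 34.1, 45.4, 35.5 and 11.4 FPKM. Mrtfa had 16.5, 20.9, 16.7, 11.9 and 8.47 FPKM. Myocd, myocardin, the coactivator that is most restricted to smooth and heart muscle, had 57, 16, 66, 44 and 1 reads and was named after its values were seen. It was the regulator without enough FPKM, and its ratio in VM-NF against VM-C was 2.16 (1.39 to 3.08).

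The PDGF and TGF-β genes that act on these cells were a list of 10, all of which had enough FPKM. Tgfb3, a TGF-β ligand, had 3613 reads in VM astrocytes, 712 in VM-C, 3430 in VM-NF, 3436 in Ctx astrocytes and 157 in Ctx NPCs. Tgfb2 had 24.0, 9.07, 33.9, 48.1 and 7.99 FPKM, and Tgfb1 went the other way among the VM libraries at 20.9, 45.8 and 23.2 FPKM. Of the list, 3 were higher past 2-fold in VM-NF than in VM-C (9.53% of all genes) and 1 was lower (9.73%). In Ctx NPCs against Ctx astrocytes 7 were lower (17.9%) and 2 higher (20.1%). The myofibroblast and TGF-β response list of 12 genes did not lean one way in VM-NF against VM-C. There 2 were higher and 2 lower, beside the same 9.53% and 9.73%, with a median of 0.04. Ccn1, an early target of YAP and serum response factor, had 1205, 369, 1596, 1076 and 100 FPKM. In Ctx NPCs 10 of the 11 genes of this list with enough FPKM were lower past 2-fold, beside 17.9% of all genes. Their median was -4.05.

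Pericyte genes other than Pdgfrb and Rgs5 gave a mixed picture. Their 12 genes took 0.0543%, 0.0548%, 0.0554%, 0.0552% and 0.0295% of the reads, which is nearly level over the 4 astrocyte libraries. Higd1b, a gene of brain pericytes, had 0 reads in all 5 libraries, and Kcnj8, a potassium channel subunit of pericytes, had 2, 24, 0, 0 and 1. Other genes of the list, named after their values were seen, had more. Abcc9, the partner of Kcnj8, had 11, 35, 6, 8 and 5 reads, Gja4 had 48, 256, 24, 18 and 3, Vtn had 60, 55, 50, 2 and 2, and Ndufa4l2 had 179, 91, 107, 47 and 14. Most reads of the list came from genes that other cells also use, among them Mcam, with 59.8, 38.3, 58.4, 65.3 and 16.3 FPKM, and Notch3, with 14.4, 9.33, 17.7, 22.6 and 20.01 FPKM. Anpep, which fibroblasts also carry, had 822, 1891, 682, 169 and 4 reads, and Cd248, also found on fibroblasts, had 38.4, 35.4, 29.6, 15.5 and 2.20 FPKM. In VM-NF against VM-C, 0 of the 9 genes with enough FPKM were higher past 2-fold (9.53% of all genes) and 2 were lower (9.73%). Their median was -0.26, whereas the member Rgs5 was higher there. The 2 lower genes were Gja4, a connexin of vessel walls, at -3.24 and Anpep at -1.32. In VM-C against VM astrocytes the same genes, at 2.32 and 1.12, were the 2 that were higher (7.30%). There 1, Ndufa4l2, was lower at -1.05 (8.48%). In VM-NF against VM astrocytes 0 of 9 passed 2-fold in either direction, beside 0.322% of all genes higher and 0.668% lower. In Ctx astrocytes 6 of 9 were lower past 2-fold than in VM astrocytes (9.89%) and 0 were higher (4.49%). In Ctx NPCs 5 of 7 were lower than in Ctx astrocytes (17.9%) and 0 were higher (20.1%).

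Fibroblast and meningeal genes were more abundant. Their 12 genes took 0.258% of the reads in VM astrocytes, 0.183% in VM-C, 0.268% in VM-NF, 0.0967% in Ctx astrocytes and 0.0474% in Ctx NPCs. The list's highest gene alone held 1274 of 2580 CPM in VM astrocytes, 622 of 1827 in VM-C and 1393 of 2677 in VM-NF. In VM-C against VM astrocytes 2 of 10 genes were higher past 2-fold (7.30% of all genes) and 1 was lower (8.48%). Their median was 0.38. In VM-NF against VM-C 2 were higher (9.53%) and 2 lower (9.73%), with a median of -0.60. Col1a1 and Col1a2, the chains of type I collagen, had 213, 104, 233, 59.9 and 6.89 FPKM, and 135, 71.6, 144, 69.6 and 6.37 FPKM. Col3a1 and Dcn, a collagen and a proteoglycan of connective tissue, were instead highest in VM-C, at 64.5 and 60.4 FPKM, against 46.4 and 38.4 in VM astrocytes and 40.1 and 31.5 in VM-NF. Dpt had at most 5 reads in any library. In Ctx astrocytes 6 of the 10 genes with enough FPKM were lower past 2-fold than in VM astrocytes (9.89% of all genes) and 1 was higher (4.49%). In Ctx NPCs, 5 were lower (17.9%) and 3 higher (20.1%) than in Ctx astrocytes. Pdgfra was among the 3, at 2.26 on the log2 scale, and was named after its value was seen. This gene alone held 294 of the list's 474 CPM in Ctx NPCs, so the share there rests mostly on it.

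Striated muscle RNA was scarce, while endothelial RNA took a small share of the reads that rested on a few genes. The 12 endothelial genes took between 0.00151% and 0.0183% of the reads, with the highest share in VM-C. Esam and Flt1 had the highest FPKM of this list. Esam had 583 reads in VM astrocytes, 740 in VM-C, 504 in VM-NF, 181 in Ctx astrocytes and 11 in Ctx NPCs. Flt1 had 838, 1855, 1018, 342 and 42 reads in the same order. In the VM libraries both had more reads than Des, Myh11 and Rgs5. Cldn5, the tight junction gene of brain endothelium, had 0 reads in VM astrocytes, 1 in VM-C and 0 in the other 3 libraries. Cdh5, an endothelial cadherin, had 391, 1045, 339, 69 and 0 reads, and Tek had 15, 6, 8, 0 and 6. The 10 striated muscle genes took at most 0.000880% of the reads. Myod1 had 86 reads in Ctx NPCs and at most 1 read in each of the other libraries, and Ckm, Myog and Tnnt2 had 0 reads there.

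**Figure D4:**
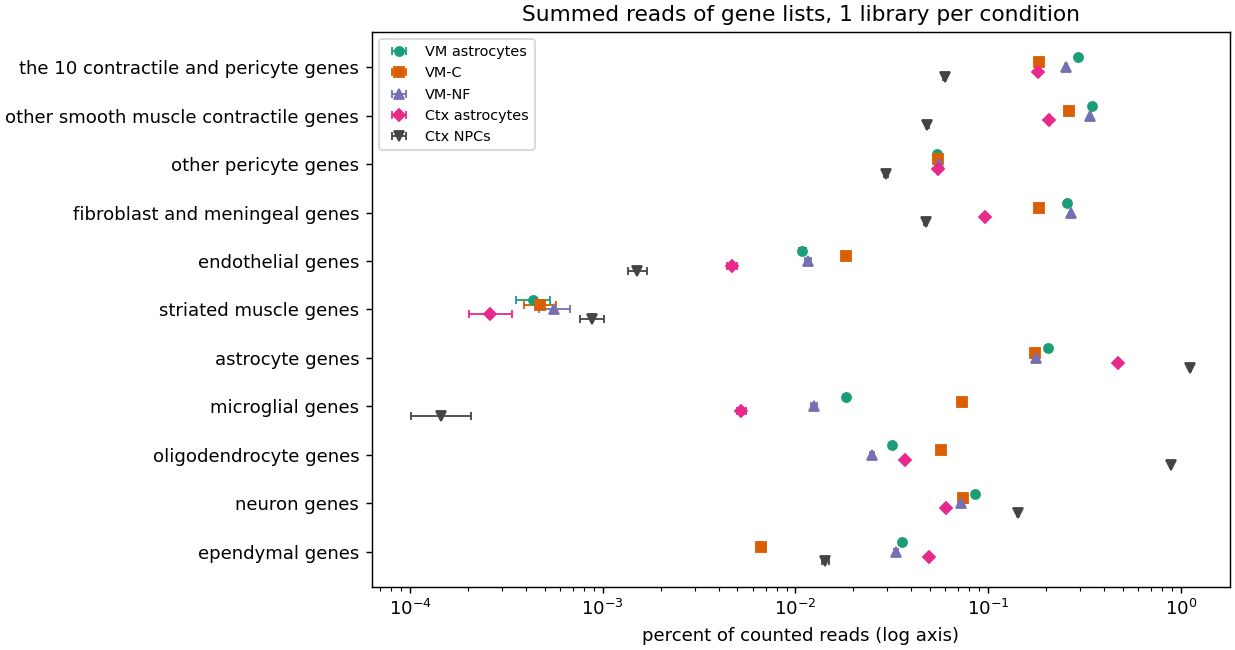
Percent of counted reads (log axis) taken by the 10 genes and by marker lists in each library, with Wilson 95% intervals of counting error. The 10 genes fall from 0.294% in VM astrocytes to 0.0595% in Ctx NPCs, while oligodendrocyte genes reach 0.888% and astrocyte genes 1.12% in Ctx NPCs.

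Astrocyte genes ran opposite to the contractile group between regions. Their 10 genes took 0.206% of reads in VM astrocytes, 0.175% in VM-C, 0.177% in VM-NF, 0.470% in Ctx astrocytes and 1.12% in Ctx NPCs. Gfap alone held 6123 of the list's 11191 CPM in Ctx NPCs, so the share there rests mostly on it. In Ctx astrocytes 7 of 10 were higher past 2-fold than in VM astrocytes (4.49% of all genes) and 0 were lower (9.89%). In Ctx NPCs 3 of 10 were higher past 2-fold than in Ctx astrocytes (20.1%) and 1 was lower (17.9%). The median there was 0.72. Slc1a3, an astrocyte glutamate transporter, had 96.7, 89.6, 102, 217 and 405 FPKM. In Ctx NPCs, oligodendrocyte genes took 0.888% of the reads, against 0.0369% in Ctx astrocytes, with 10 of 10 higher past 2-fold. Of the 10 neuron genes 8 were higher past 2-fold (20.1% of all genes) and 1 was lower (17.9%). How far the lower contractile share in Ctx NPCs goes with the larger share of these genes was not tested.

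Genes with the pattern most like a member over the 5 libraries were found by the root mean square distance of log2(CPM + 0.5), each gene centred on its own mean, among 13297 genes with FPKM above 1 in at least 1 library. For Acta2 they were St3gal6 at 0.0676, Sct, Ppp1r36, Ssh3 and Radil. For Myh11 they were Mkx at 0.0588, Lama2, Angptl2, Hspg2 and Slc9a2. For Pdgfrb they were Oit3 at 0.0642, Slco3a1, B3gnt2, Timp3 and Slc22a18, and for Rgs5 they were Col4a5 at 0.0752, Zbtb42, Pam, Klrg2 and Cercam. No member was among the 5 nearest genes of another member. The closest pair within the group was Pdgfrb and Tagln at 0.305.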

How the data were processed

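RNA-seq was measured in 5 mouse libraries, 1 per condition. Per the study's methods, reads were trimmed at a quality score of 20, checked with Bowtie, mapped with STAR to GRCm38/mm10 and counted with HTSeq-count on RefSeq release 105. The submitters' processing notes name mm9, bcl2fastq 1.8.4, STAR, HTSeq and DESeq, so the build is contradictory and no gene coordinates are given beyond those of RefSeq promoter windows. The authors deposited raw read counts per transcript and FPKM. FPKM was recomputed from the deposited counts to within a relative difference of 4.09e-05. Of 20178 transcripts, 19997 were paired with a symbol and 181 were not. Columns of per-sample values left unused numbered 0.

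Counts were scaled to library totals and 0.5 reads, scaled to library size, were added. Genes past 2-fold with FPKM above 1 in at least 1 of the 2 libraries were counted. There was no replicate and no test. Reads have exact Poisson, ratios exact Clopper-Pearson and shares Wilson 95% intervals, which cover counting error only. For a count of 0 the exact Poisson interval reaches 3.69 reads. Sequence sharing was computed in 50-base windows of GENCODE M21 transcripts. The calculations were tested on simulated data.

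The 10 members and the 14 other lists (143 genes, 4 matched by an older symbol) were chosen with earlier results of these data known. Named genes were the members, the 4 genes of each list with the highest FPKM, list genes with 0 reads in a library, the actins, Nr4a2 and Foxa2, and the 5 nearest genes of Acta2, Myh11, Pdgfrb and Rgs5. The lists cover other smooth muscle, regulator, pericyte, myofibroblast, PDGF and TGF-β, fibroblast, endothelial, striated muscle, nonmuscle cytoskeleton, astrocyte, microglial, oligodendrocyte, neuron and ependymal genes. Cd68 was not analysed here, and 1 named gene is not reported. Alternatives were edgeR's TMM, DESeq2's median-of-ratios and upper-quartile scaling, 5 reads added, other filters, 1.5-fold and 2.6-fold, sums without Acta2 and Actg2 and, chosen after seeing the data, GENCODE transcript lengths. The work was done in R 4.3.3 with DESeq2 1.42.0 and edgeR 4.0.16, and in Python 3.11.15 with scipy 1.17.1, numpy 2.4.6, pandas 2.3.3 and matplotlib 3.10.9.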

Additional observations from a re-analysis of the deposited data

How the results depend on the processing

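No paired analysis was possible because each condition had 1 library, and for the same reason no replicate could be left out. Over 200 alternatives for single genes, made of other scalings and 5 reads added, no gene called past 2-fold lost its call or changed its direction. Under each other scaling 2 or 3 ratios near 0 changed sign, none of them past 2-fold. With FPKM above 1 required in both libraries, 2 of 8 genes were higher in VM-NF than in VM-C (7.00% of all genes), 3 of 8 were lower in VM-C than in VM astrocytes (5.83%) and 4 of 5 were lower in Ctx NPCs than in Ctx astrocytes (13.2%), since genes under 1 FPKM in the lower library drop out. At 2.6-fold, 1 of 10 genes stayed lower in VM-C than in VM astrocytes (5.10% of all genes) and 1 in Ctx than in VM astrocytes (6.99%). At that cutoff 3 stayed higher in VM-NF than in VM-C (5.38%) and 8 lower in Ctx NPCs than in Ctx astrocytes (13.4%). At 1.5-fold, 7 of 10 were lower in VM-C than in VM astrocytes (17.4%) and 1 was higher (14.6%). There 5 were higher in VM-NF than in VM-C (18.8%), and 6 were lower in Ctx than in VM astrocytes (17.0%). Without Acta2 and Actg2 the median ratio of Ctx against VM astrocytes was -0.60, and the summed CPM of the genes was 1729 in VM astrocytes, 1330 in VM-C, 1489 in VM-NF, 1135 in Ctx astrocytes and 285 in Ctx NPCs, against 2940, 1830, 2532, 1813 and 595 with them. As sums of FPKM they were 1488, 941, 1261, 903 and 326. Of the genes past 2-fold in VM-NF against VM astrocytes, 32.5% were higher under library totals and 44.7% under TMM. Depth limits Rgs5, Myh11, Des, Actg2 and Cnn1 in Ctx NPCs, where each had at most 14 reads.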

Other observations

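Nonmuscle cytoskeleton genes took 0.873% of reads in VM astrocytes, 0.752% in VM-C, 0.779% in VM-NF, 0.597% in Ctx astrocytes and 0.525% in Ctx NPCs. Of their 10 genes, 0 passed 2-fold in any pair of VM libraries, beside the shares of all genes given above for these pairs. In Ctx astrocytes 1 was lower past 2-fold than in VM astrocytes (9.89% of all genes). In Ctx NPCs 3 were lower than in Ctx astrocytes (17.9%). Cnn3 had 565, 325, 528, 839 and 625 FPKM in the same order of libraries and Tpm4 had 369, 324, 339, 190 and 85.6 FPKM. Stmn2, a microtubule regulator listed among the neuron genes, had 304, 188, 250, 119 and 33.3 FPKM, highest in VM astrocytes and lowest in Ctx NPCs, whereas Map2 of the same list had 16.7, 25.6, 18.2, 30.1 and 91.9 FPKM.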
